A study of Mus musculus with 30 samples.

Results

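Cholesterol and fatty acid synthesis genes were followed in mouse embryonic stem cells (mESCs) moved between culture media. The set held 34 genes, chosen by symbol as regulators of the SREBP pathway and enzymes of sterol and fatty acid synthesis. The choice used no measured values directly but was made with earlier results of these data known. They were 34 of the 52630 genes of a time-course table and of the 55487 genes of a passage table, and all 34 passed the filter on low counts in both experiments. By role they comprised 5 regulators (Srebf1, Srebf2, Scap, Insig1 and Insig2), 7 genes of the mevalonate pathway (Acat2, Hmgcs1, Mvk, Pmvk, Mvd, Idi1 and Fdps) and 11 genes of the steps from squalene to cholesterol (Fdft1, Sqle, Lss, Cyp51, Tm7sf2, Msmo1, Nsdhl, Hsd17b7, Ebp, Sc5d and Dhcr7). The others were the sterol transfer protein gene Stard4, 4 genes that make acetyl-CoA or join it into fatty acids (Acly, Acss2, Acaca and Fasn) and 6 genes of desaturation and elongation (Scd1, Scd2, Fads1, Fads2, Elovl5 and Elovl6).

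RNA was measured by sequencing in E14tg2a, an established mESC line. In the time course the control group was Serum/LIF, a medium with fetal serum, glucose, pyruvate and the cytokine LIF, labelled 0 h. The treated groups were kept for 3, 9 or 24 h in EMM, the same medium with galactose in place of glucose and without pyruvate. In the passage experiment cells of the same line were kept in Serum/LIF, in EMM or in 2i/LIF. RNA was taken after 10 passages (P10) or 20 passages (P20). 2i/LIF is a medium that holds mESCs with inhibitors of GSK3 and MEK together with LIF. The study names it a defined condition, and its proteome methods list N2B27 as the base, with no serum. Base medium, serum and inhibitors therefore differ together between 2i/LIF and the other media, and their parts cannot be told apart. Each of the 4 and 6 groups had 3 libraries, taken by the study's methods from independent experiments. All cells were grown with LIF, and the methods describe gelatin-coated flasks for the serum media and name no feeder layer. The control is labelled 0 h, while the treatment text gives it 24 h in Serum/LIF, so a shared medium change of the control could not be settled.

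Cholesterol and fatty acids are both built from cytosolic acetyl-CoA, and the genes for both routes are classical targets of the SREBP transcription factors. SREBP precursors sit in the endoplasmic reticulum bound to the escort protein SCAP. When membrane sterol is plentiful, INSIG proteins hold SCAP in place, and when sterol falls the complex moves to the Golgi, where proteases release the active factor.

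Sequences upstream of the start were compared because SREBP factors are known to bind sterol regulatory elements beside CCAAT boxes, the sites of the factor NF-Y. RefSeq promoters (GRCm38.p6) were present for 27 of the 34 genes. Stard4, Fdps, Fdft1, Sqle, Fads1, Scd1 and Scd2 had no entry. In the 250 bases before the start, on either strand, CCAAT was found in 21 of the 27 genes (77.8%), against 37.5% of all 27025 genes with a promoter and 40.8% of the 12071 among them that were tested here. The E-box CACGTG was found in 6 (22.2%), against 6.86% of all and 9.68% of tested genes. The GC box GGGCGG was found in 22 (81.5%), against 35.4% and 62.0%. The sterol regulatory element core TCACNCCAC was found only in Hmgcs1 (1 of 27, 3.7%, against 1.22% and 1.28%), and with at most 1 mismatch in 11 genes (40.7%, against 23.0% and 25.9%). A gene with several starts was counted if any of its windows held the motif. The end of the sterol element can share the letters CAC with the start of an E-box, and CCAAT can overlap its own reverse complement, as in the Fasn window. Starts used in these cells were not measured. Of the 35 windows of the 27 genes, 19 reached into an annotated exon of the same gene.

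Windows of 6 genes are given 5′ to 3′ on the gene's strand: they span the roles (a regulator, mevalonate genes, late sterol genes and the fatty acid synthase) and hold the only exact sterol element of the set, E-boxes or CCAAT boxes. Capitals mark the sterol element, the E-box and the CCAAT box, which reads ATTGG where it lies on the other strand. The Insig1 window was stopped before the first annotated exon.
Insig1 (chr5:28071162-28071362, plus strand): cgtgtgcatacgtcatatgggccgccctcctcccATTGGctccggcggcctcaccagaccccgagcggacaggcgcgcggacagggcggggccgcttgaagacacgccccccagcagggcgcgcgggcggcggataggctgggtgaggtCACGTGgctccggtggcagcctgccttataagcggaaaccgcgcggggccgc
Hmgcs1 (chr13:119690101-119690350, plus strand): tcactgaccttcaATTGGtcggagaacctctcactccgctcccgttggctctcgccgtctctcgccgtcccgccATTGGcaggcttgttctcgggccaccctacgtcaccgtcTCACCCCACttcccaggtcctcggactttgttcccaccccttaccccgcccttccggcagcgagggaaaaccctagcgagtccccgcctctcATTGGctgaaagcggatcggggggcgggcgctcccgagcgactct
Mvd (chr8:122443423-122443672, minus strand): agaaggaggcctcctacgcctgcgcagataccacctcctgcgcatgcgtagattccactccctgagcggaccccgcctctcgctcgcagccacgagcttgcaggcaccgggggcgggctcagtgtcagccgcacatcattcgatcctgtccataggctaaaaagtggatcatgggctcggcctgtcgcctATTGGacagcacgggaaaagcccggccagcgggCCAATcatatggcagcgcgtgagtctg
Ebp (chrX:8193513-8193762, minus strand): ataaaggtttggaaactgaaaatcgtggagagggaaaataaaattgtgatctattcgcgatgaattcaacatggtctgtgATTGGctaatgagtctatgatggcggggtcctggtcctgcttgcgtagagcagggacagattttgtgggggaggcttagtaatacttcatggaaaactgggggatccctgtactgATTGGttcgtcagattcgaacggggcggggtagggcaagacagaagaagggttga
Sc5d (chr9:42264301-42264550, minus strand): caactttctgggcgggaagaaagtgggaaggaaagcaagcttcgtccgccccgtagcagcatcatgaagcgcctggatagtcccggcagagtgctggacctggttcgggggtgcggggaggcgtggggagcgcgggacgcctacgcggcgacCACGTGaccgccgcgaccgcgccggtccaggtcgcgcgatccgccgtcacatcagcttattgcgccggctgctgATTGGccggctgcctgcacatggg
Fasn (chr11:120824548-120824797, minus strand): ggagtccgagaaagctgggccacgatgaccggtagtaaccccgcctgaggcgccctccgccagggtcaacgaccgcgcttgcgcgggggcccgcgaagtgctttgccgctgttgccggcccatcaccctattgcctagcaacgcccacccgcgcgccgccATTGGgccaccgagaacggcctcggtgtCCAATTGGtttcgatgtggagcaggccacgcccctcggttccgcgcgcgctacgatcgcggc
Counted from the RefSeq start, which for Insig1 lies beyond the end of the printed window, the exact sterol element of Hmgcs1 began 137 bases upstream and the E-boxes of Insig1 and Sc5d 101 and 98 bases upstream. No match says only that these letters were not in the window.

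Total counts were 24074132 to 35301962 per library in the time course and 6944904 to 27912928 in the passage experiment. Values below are normalized counts, that is, counts scaled to the mean effective depth of the experiment, so they compare libraries within 1 experiment only. A gene was called higher or lower at an adjusted p under 0.01 (edgeR's quasi-likelihood test, Benjamini-Hochberg over all tested genes). Summed over 10 mESC markers, normalized counts were 174076 to 188540 in the time course and 73018 to 129200 in the passage experiment. Single mESC markers differed between media within a passage. Utf1 had 362 to 838 in 2i/LIF at P10 against 3527 to 3773 in Serum/LIF. Nanog had 3380 to 3628 in EMM at P20 against 7202 to 8033 in Serum/LIF. Tfcp2l1 instead was higher in 2i/LIF at P10, with 13547 to 17948 against 3207 to 3840 in Serum/LIF. Summed over 8 fibroblast markers, passage Serum/LIF libraries held 2366 to 7242 normalized counts, against 238 to 473 in EMM and 54 to 132 in 2i/LIF. Summed over 8 trophoblast markers they held 1948 to 3888, against 428 to 522 in EMM and 274 to 491 in 2i/LIF. Col1a1 and Krt18 were the largest parts of these Serum/LIF sums. Markers of these lists did not all follow the sums. Col1a2 lay between 334 and 1270.1 normalized counts in passage Serum/LIF and between 2.41 and 46.4 in the other media, Col3a1 between 69.4 and 226 against 0 to 12.1, and Krt7 between 116 and 251 against 0 to 21.8. Hand1 lay between 58.5 and 181 in Serum/LIF, between 5.58 and 71.5 in EMM and between 0 and 1.92 in 2i/LIF. Dcn, Lum and Elf5 reached at most 16.3, 2.89 and 5.79 in Serum/LIF. In the other direction, Thy1 had 259 to 357 in EMM at P10 against 115 to 167 in Serum/LIF, Cdx2 had 224 to 298 in 2i/LIF at P10 against 46.3 to 67.5, and Ascl2 had 88.8 to 90.0 in EMM at P10 against 61.3 to 87.8 and 103 to 123 at P20 against 89.3 to 104. EMM and Serum/LIF overlapped for Fbn1, Thy1 and Dcn at P20 and for Eomes, Gata3 and Hand1 at P10, among others. The highest fibroblast sum, 7242, was that of P20 Serum/LIF replicate 3. In bulk RNA, fewer cells that express a gene and less RNA per cell cannot be told apart.

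Some members share sequence with other genes, and their values are uncertain where the counting could split reads. Over at least 200 bases at 95% identity or more, Fdps matched transcripts of 5 other genes, Idi1 of 3, Acat2 and Fdft1 of 2, and Acaca, Elovl6, Hmgcs1, Scap, Scd2 and Tm7sf2 of 1. The Acaca match, to the pseudogene Gm5182, ran over 6118 bases at 99.2% identity. Fdps had 201, 211 and 195 normalized counts in the time-course Serum/LIF libraries but 3060.2, 3543 and 3207 in passage Serum/LIF at P10, tables that were made and normalized separately. Tested genes on the opposite strand overlap Srebf1, Insig2, Mvd, Fdft1, Cyp51, Acss2 and Elovl6, and no source used here states strand for the time course.

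By level per kilobase of exon, the stearoyl-CoA desaturase gene Scd2 ranked highest of the 34 in both kinds of Serum/LIF culture. It had a mean of 4107 normalized counts per kilobase in the time-course controls and 1908 at P10. Acly, the gene of ATP citrate lyase, which makes cytosolic acetyl-CoA from citrate, came next with 3434 and 1539.6 per kilobase. Acss2, the gene that makes acetyl-CoA from acetate, ranked last, with 36.6 and 21.7 per kilobase. In 2i/LIF at P20, Scd1, the close relative of Scd2, had rank 3 of the 34 at 1708 normalized counts per kilobase. Scd2 levels carry the limit that 623 bases of it are 95.5% identical to Scd1.

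**Figure D1:**
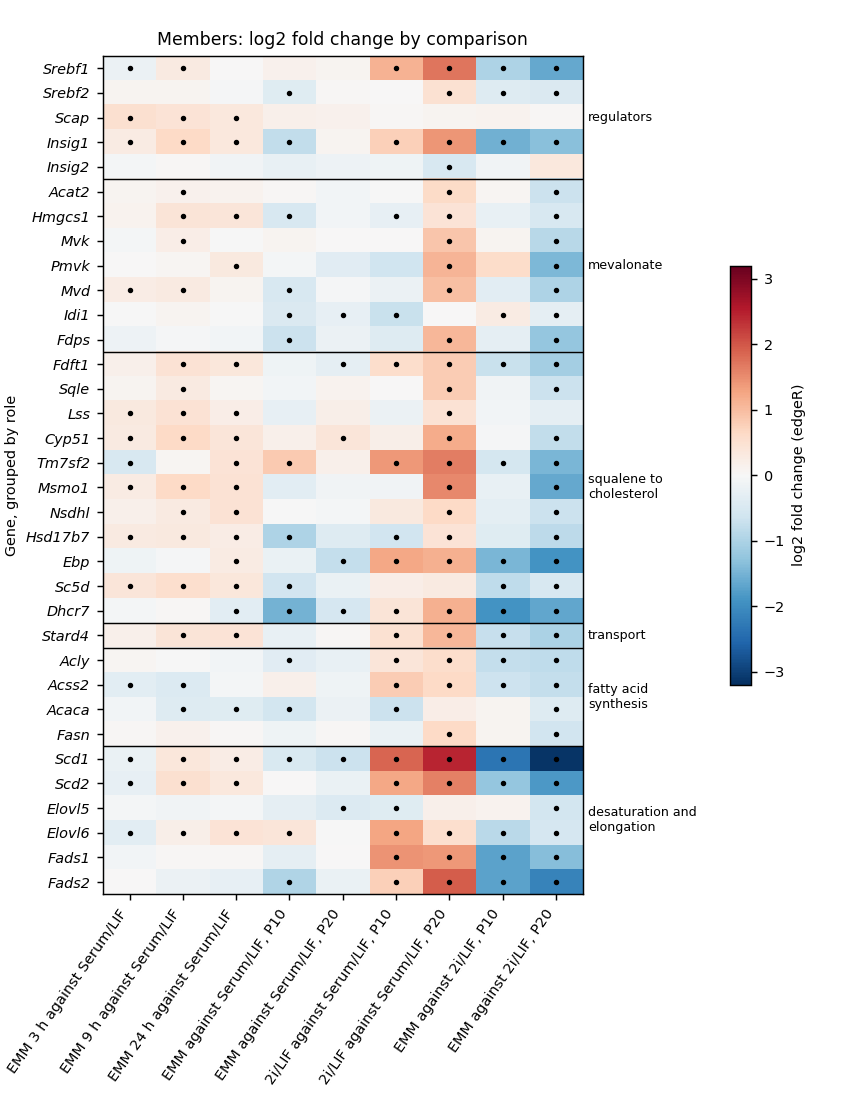
Heat map of log2 fold changes of the 34 genes (rows, grouped by role) in 9 comparisons (columns). Red is higher and blue is lower in the first group named, and a dot marks an adjusted p under 0.01. Changes in the 3 time-course columns stay within 0.64 of 0, while 2i/LIF against Serum/LIF at P20 reaches 2.44 and EMM against 2i/LIF at P20 reaches -3.14, both in Scd1.

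The first question was how quickly these genes respond when glucose is replaced by galactose. At 3 h of EMM, 8 members were higher (16.3% of all tested genes were) and 6 were lower (18.2% of all). At 9 h, 19 were higher and 2 lower, against 18.5% and 19.7% of all tested genes. At 24 h, 17 were higher and 2 lower, against 21.8% and 22.2%. The median log2 fold change of the 34 was 0.03, 0.20 and 0.17 at the 3 times, beside -0.01 at 3 h and 0.00 at 9 and 24 h over all tested genes. No member reached a 2-fold change at any time. The 3 comparisons share the Serum/LIF libraries.

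Among the regulators, Insig1, which retains SCAP when sterol is plentiful and is itself a target of SREBP, rose at each time. It had 2219.7, 2374 and 2268 normalized counts in Serum/LIF, 2839, 2703 and 2649.6 at 3 h, 3526, 3527 and 3566 at 9 h and 2979, 2888 and 2839 at 24 h. All EMM libraries lay above all Serum/LIF libraries, and the 9 h libraries lay above the rest. The log2 fold changes were 0.25 ± 0.04 (adjusted p = 7.5e-05), 0.63 ± 0.04 (adjusted p = 7.5e-09) and 0.34 ± 0.04 (adjusted p = 2.7e-06), with standard errors after the ± sign here and below. Scap, the escort protein gene, had 1337, 1290.2 and 1265 in Serum/LIF, 1868, 1836 and 1802 at 3 h, 1841, 1799 and 1664 at 9 h and 1822, 1543 and 1573 at 24 h. Its groups did not overlap with Serum/LIF at any time, and the log2 fold changes were 0.50 ± 0.06 (adjusted p = 7.3e-06), 0.45 ± 0.06 (adjusted p = 1.9e-05) and 0.34 ± 0.06 (adjusted p = 0.00018).

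Srebf1, the gene of the factor that mainly drives fatty acid synthesis, went down and then up. It had 3139, 3115 and 3065 in Serum/LIF, 2894, 2729.9 and 2609 at 3 h, 3665, 3823 and 3909.8 at 9 h and 3251, 3050.0 and 3117 at 24 h. The log2 fold change was -0.18 ± 0.04 (adjusted p = 0.0031) at 3 h and 0.29 ± 0.04 (adjusted p = 4.5e-05) at 9 h, and the 24 h value of 0.02 ± 0.04 (adjusted p = 0.79) did not pass. The 3 h call was lost when Serum/LIF replicate 1 or 2 or EMM 3 h replicate 2 or 3 was left out, with values from -0.22 to -0.14 over the 6 libraries left out in turn. Srebf2, the gene of the factor that mainly drives cholesterol synthesis, had 9880.2 to 10375 normalized counts in Serum/LIF and 10522 to 10888, 10098 to 11126 and 9435 to 10834 in EMM. The groups overlapped except at 3 h, and no log2 fold change passed (0.08, 0.08 and -0.04). Insig2, the less sterol-dependent INSIG gene, likewise did not pass at any time, with 690.5 to 801 normalized counts in Serum/LIF and 648 to 724 at 24 h.

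Of the 11 genes from squalene to cholesterol, 5, 8 and 9 were higher at 3, 9 and 24 h, with a median log2 fold change of 0.16, 0.31 and 0.36, and 1, none and 1 were lower, against 16.3%, 18.5% and 21.8% of all tested genes higher and 18.2%, 19.7% and 22.2% lower. Cyp51, the lanosterol demethylase, had 2404, 2428 and 2408 normalized counts in Serum/LIF, 2968, 2890.2 and 2947 at 3 h, 3815, 3677 and 3805 at 9 h and 3152, 3145 and 3151 at 24 h. Msmo1, which oxidizes methyl groups of the ring at a later step, had 2401, 2396 and 2295 in Serum/LIF, 2979, 2739 and 2775 at 3 h, 3758, 3612 and 3604 at 9 h and 3317, 3338 and 3195 at 24 h. Both genes were highest in the 9 h libraries, and no EMM library overlapped with Serum/LIF. At 9 h the log2 fold change was 0.64 ± 0.03 (adjusted p = 9.2e-10) for Cyp51 and 0.63 ± 0.04 (adjusted p = 1.2e-08) for Msmo1.

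Sc5d, which adds a double bond to the sterol ring, had 836, 887 and 891 in Serum/LIF and 1174, 1118 and 1132 at 3 h. Lss, which closes lanosterol's rings, had 2338, 2570.4 and 2482 in Serum/LIF and 3167, 3014 and 3032 at 3 h. Neither gene overlapped between the groups. Their 3 h log2 fold changes were 0.39 ± 0.05 (adjusted p = 2e-05) and 0.32 ± 0.04 (adjusted p = 2.5e-05), the largest among members at that time after Scap. Nsdhl, an enzyme that helps remove methyl groups from the ring, had 1046, 1089 and 1046 in Serum/LIF and 1431, 1554 and 1395 at 24 h, a change of 0.46 ± 0.05 (adjusted p = 1.2e-06). Dhcr7, the reductase of the last step to cholesterol, went the other way at 24 h, from 1741, 1821 and 1713 to 1408, 1440.1 and 1339, a change of -0.33 ± 0.05 (adjusted p = 1.9e-05). Its groups overlapped at 3 h, and the 24 h libraries lay below all Serum/LIF libraries. Tm7sf2, a sterol reductase gene that shares 532 bases with the overlapping Vps51, had 417, 392 and 326 in Serum/LIF, 276, 283 and 237 at 3 h and 538, 477 and 525 at 24 h, with changes of -0.51 ± 0.11 (adjusted p = 0.0011) and 0.44 ± 0.10 (adjusted p = 0.0016). Ebp, the sterol isomerase, was called higher at 24 h (0.25 ± 0.07, adjusted p = 0.0056), a call lost when Serum/LIF replicate 1 or 2 or EMM 24 h replicate 1 was left out, with values from 0.20 to 0.30. Fdft1, the squalene synthase, rose by 0.46 ± 0.05 at 9 h and 0.37 ± 0.05 at 24 h, and Sqle, the squalene epoxidase, by 0.29 ± 0.05 at 9 h.

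**Figure D2:**
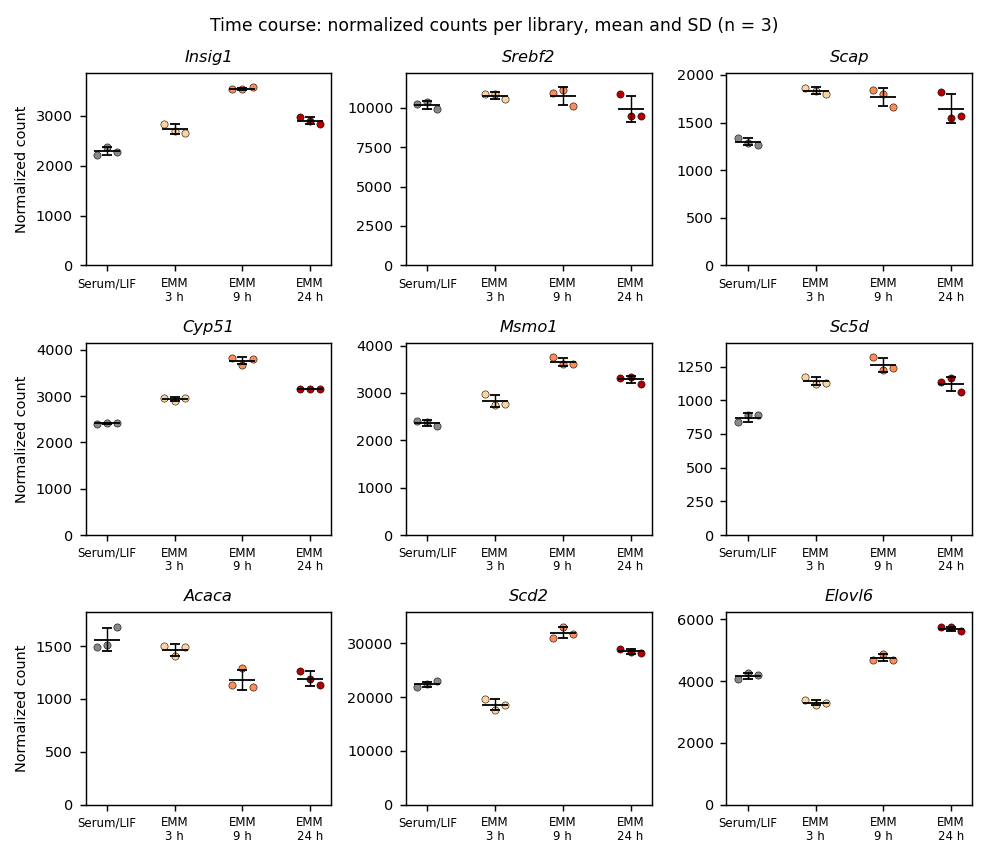
Normalized counts (y axis, from 0) of 9 genes in Serum/LIF and after 3, 9 and 24 h of EMM (x axis). Points are the 3 libraries of a group, and bars are the mean and SD. Insig1, Cyp51, Msmo1 and Sc5d are highest at 9 h, Elovl6 dips at 3 h and is highest at 24 h, and Acaca is lower at 9 and 24 h.

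Of the 7 mevalonate genes, 1, 4 and 2 were higher at 3, 9 and 24 h and none was lower (0 with edgeR at an unadjusted p under 0.05 and 0 with DESeq2), beside 16.3%, 18.5% and 21.8% of all tested genes higher and 18.2%, 19.7% and 22.2% lower. The gene called at 3 h was Mvd (0.25 ± 0.06, adjusted p = 0.0051), a call lost without Serum/LIF replicate 1 or 3 or EMM 3 h replicate 1 or 3, with values from 0.22 to 0.24, and with library totals alone at 0.18. Hmgcs1, which makes the HMG-CoA that enters the pathway, had 5805, 5872 and 5683 in Serum/LIF and 7987, 7788 and 7469 at 9 h. All 9 h libraries lay above all controls, and the change was 0.42 ± 0.04 (adjusted p = 3.7e-07) at 9 h and 0.39 ± 0.04 (adjusted p = 5.3e-07) at 24 h. Pmvk, the phosphomevalonate kinase, was called at 24 h alone, from 805, 861 and 805 to 1034, 1032 and 1014, a change of 0.32 ± 0.05 (adjusted p = 3.6e-05). Mvk, the mevalonate kinase, rose at 9 h by 0.22 ± 0.04. Acat2, which joins acetyl-CoA at the entry of the pathway, rose at 9 h by 0.14 ± 0.04, a call lost without Serum/LIF replicate 2 or 3 or EMM 9 h replicate 1 or 2, with values from 0.13 to 0.16 in those fits. Idi1 and Fdps, an isomerase and the farnesyl diphosphate synthase, did not pass at any of the 3 times. Stard4, which carries sterol between membranes, had 1609, 1493 and 1712 in Serum/LIF and 2157, 2191 and 2131 at 24 h, a change of 0.43 ± 0.05 (adjusted p = 5.2e-06).

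Of the 4 genes of fatty acid synthesis, none was called higher at any of the 3 times (edgeR gave 0, 1 and 0 at an unadjusted p under 0.05, and DESeq2 called 0), and 1, 2 and 1 were lower, beside 16.3%, 18.5% and 21.8% of all tested genes higher and 18.2%, 19.7% and 22.2% lower. With 4 genes these counts lie near the shares over all genes. Acaca, the acetyl-CoA carboxylase that makes malonyl-CoA, had 1489, 1512 and 1685 in Serum/LIF, 1501, 1403 and 1488 at 3 h, 1128, 1289.9 and 1115 at 9 h and 1264, 1187 and 1127 at 24 h. The 3 h libraries overlapped with Serum/LIF and the later ones did not, with changes of -0.41 ± 0.07 (adjusted p = 0.00011) and -0.39 ± 0.07 (adjusted p = 0.00013). Acss2 had 398, 383 and 336 in Serum/LIF, 311, 283 and 285 at 3 h and 292, 297 and 240.5 at 9 h, with changes of -0.35 ± 0.09 (adjusted p = 0.0062) and -0.43 ± 0.09 (adjusted p = 0.0013). Its 24 h libraries, at 379.9, 352 and 328, overlapped with Serum/LIF. Leaving out Serum/LIF replicate 1 or 2 or EMM 3 h replicate 2 or 3 ended the 3 h call of Acss2, with values from -0.41 to -0.30. Fasn, the multi-enzyme fatty acid synthase, had 18365 to 20029 in Serum/LIF and 19163 to 22469 at 9 h and did not pass, nor did Acly, with log2 fold changes from -0.08 to 0.06.

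Of the 6 desaturation and elongation genes, 3 were lower at 3 h, against 18.2% of all tested genes, and 3 were higher at 9 h and at 24 h, against 18.5% and 21.8%. Scd2 had 21973, 22435 and 22909 in Serum/LIF, 19634, 17591 and 18598 at 3 h, 31048, 33142 and 31840.2 at 9 h and 28977, 28356 and 28204 at 24 h. No group overlapped with Serum/LIF, and the changes were -0.27 ± 0.04 (adjusted p = 7.1e-05), 0.51 ± 0.04 (adjusted p = 1.1e-07) and 0.35 ± 0.04 (adjusted p = 4.1e-06). Scd1, the related desaturase that makes oleate, followed with -0.21, 0.36 and 0.25, all past the threshold. Elovl6, which elongates palmitate to stearate, had 4059, 4262 and 4191 in Serum/LIF, 3383, 3216 and 3306 at 3 h, 4691, 4890.3 and 4686 at 9 h and 5737, 5736 and 5611 at 24 h. It lay below every control at 3 h (-0.34 ± 0.04, adjusted p = 1.9e-06) and above every control at 24 h (0.45 ± 0.04, adjusted p = 5.7e-08). From 3 h to 9 h, Scd2, Scd1 and Elovl6 rose by 0.78 ± 0.04, 0.57 ± 0.04 and 0.53 ± 0.04. Elovl5, Fads1 and Fads2, an elongase and a pair of desaturases of polyunsaturated fatty acids, did not pass at any of the 3 times.

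Between 3 h and 9 h, 13 members rose and 1 fell, against 13.7% and 12.9% of all tested genes. Between 9 h and 24 h, 3 rose and 8 fell with edgeR, against 7.0% and 6.02%, and DESeq2 called 5 higher and 9 lower. The 8 that fell between 9 and 24 h included Srebf1 (-0.28), Insig1 (-0.29), Cyp51 (-0.26), Lss (-0.25) and Dhcr7 (-0.38), and the 3 that rose were Elovl6 (0.26), Ebp (0.29) and Pmvk (0.24). The Ebp call was lost when any of 5 of the 6 libraries was left out (EMM 9 h replicate 2 was the exception), with values from 0.22 to 0.32. Without EMM 24 h replicate 3 the count of 11 calls fell to 7. From Serum/LIF to 24 h of EMM, the sum of 8 trophoblast markers went from 2574 to 2851 up to 4456 to 4788 normalized counts, with 3 of 7 tested markers higher and 2 lower, and 3 of 6 tested fibroblast markers were lower, against 21.8% and 22.2% of all tested genes higher and lower. Of 10 primitive endoderm markers 5 were higher and 3 lower at 24 h, with Sox7 from 82.8 to 108 up to 297 to 319 and Lamb1 from 4200.1 to 4415 down to 2743 to 2987 normalized counts. Their sum was 6468 to 7071 in Serum/LIF, 8766 to 9190.3 at 3 h and 6222 to 6629 at 24 h. Their part in these changes was not tested.

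The passage experiment compared the media after long culture, at P10 and at P20. Against Serum/LIF, 14 members were higher in 2i/LIF at P10 and 5 were lower, beside 26.4% and 25.6% of all tested genes. At P20, 28 were higher and 1 lower, against 21.0% and 23.2%. The median log2 fold change of the 34 was 0.12 at P10 and 0.81 at P20, beside 0.02 and -0.01 over all tested genes. Past 2-fold, 7 members were higher at P10 (11.6% of all tested genes) and 14 at P20 (6.77%), and none was lower by as much. In these comparisons all 6 tested fibroblast markers were lower in 2i/LIF at both passages, as were 4 and 6 of 7 tested trophoblast markers and 5 and 6 of 10 primitive endoderm markers, while 1 trophoblast marker at P10 and 3 and 1 primitive endoderm markers were higher. Without P20 Serum/LIF replicate 3, 27 members were higher in 2i/LIF at P20 and none lower. The part of such cells in the member values was not tested.

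EMM was compared with Serum/LIF in the same way. At P10, 2 members were higher and 13 lower, against 18.7% of all tested genes in each direction, with a median of -0.25. At P20, 1 was higher and 6 were lower, against 13.6% and 12.5%, with a median of -0.10. That count of 7 fell to 4 without P20 EMM replicate 1 or 2, was 5 or 6 without each other library, and was 11 when only the groups compared were fitted. With size factors of DESeq2 none was higher and 7 were lower, and with library totals alone none was higher and 10 were lower. In these comparisons 4 of 6 tested fibroblast markers were lower in EMM at each passage, and 1 was higher at P10, while 3 and 4 of 7 trophoblast markers were lower. Of 10 primitive endoderm markers 2 were higher and 2 lower at P10, and 1 was higher at P20. Their sum at P10 was 4412 to 4607 in Serum/LIF and 2497 to 3076 in EMM. Lamb1 and Lama1 made up most of that sum and went opposite ways. Lamb1 had 3205 to 3505 in Serum/LIF and 676 to 731 in EMM, and Lama1 had 876 to 966 and 1685 to 2211. Against 2i/LIF, EMM had 1 member higher and 16 lower at P10, against 22.9% and 22.2% of all, and none higher and 31 lower at P20, against 25.7% and 22.9%. With edgeR 1 member was higher there at an unadjusted p under 0.05, and DESeq2 called 0. At P20 Scap, Insig2 and Lss did not pass in that comparison (0.04, 0.33 and -0.28). Comparisons of 1 passage share their libraries with each other.

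Among the regulators Srebf1 had the largest change in 2i/LIF at both passages. It had 1069, 1077 and 1013 normalized counts in Serum/LIF, 1150.1, 1133 and 1200.3 in EMM and 2424, 2293 and 2173 in 2i/LIF at P10. At P20 it had 1144, 1094 and 1049 in Serum/LIF, 1185, 1125 and 1193 in EMM and 3827, 3759 and 3266 in 2i/LIF. The 2i/LIF libraries lay above all others of their passage, and the log2 fold changes against Serum/LIF were 1.12 ± 0.07 (adjusted p = 2.3e-10) and 1.72 ± 0.07 (adjusted p = 1.4e-12). EMM differed from Serum/LIF by 0.14 and 0.09, which did not pass.

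Insig1 was lower in EMM and higher in 2i/LIF at P10, with 1968, 2026 and 1865 in Serum/LIF, 1155, 1188 and 1067 in EMM and 4009, 2976 and 2959.9 in 2i/LIF. No groups overlapped, and the changes were -0.78 ± 0.10 (adjusted p = 4.5e-06) and 0.76 ± 0.10 (adjusted p = 2.5e-06). At P20 it had 1441, 1411 and 1393 in Serum/LIF, 1370.3, 1468 and 1640.0 in EMM and 3835, 3942 and 3586 in 2i/LIF, with overlap between Serum/LIF and EMM and a change of 1.42 ± 0.10 (adjusted p = 1.3e-09) in 2i/LIF. Srebf2 was lower in EMM at P10, from 4459, 4578 and 4342 to 3465, 3233 and 3452 (-0.40 ± 0.07, adjusted p = 0.00015), and higher in 2i/LIF at P20, from 3532, 3886 and 3550.1 to 5103, 5643 and 4621 (0.49 ± 0.07, adjusted p = 1.3e-05). Insig2 was the member called lower in 2i/LIF at P20, from 315, 308 and 300.3 to 167, 232 and 240.4 (-0.50 ± 0.14, adjusted p = 0.0062). That call was lost without P20 2i/LIF replicate 1 or any of the 3 P20 Serum/LIF replicates, with values from -0.58 to -0.38. Scap had 523 to 593 in Serum/LIF and 532 to 601 in 2i/LIF at P10 and did not pass in any comparison of media.

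**Figure D3:**
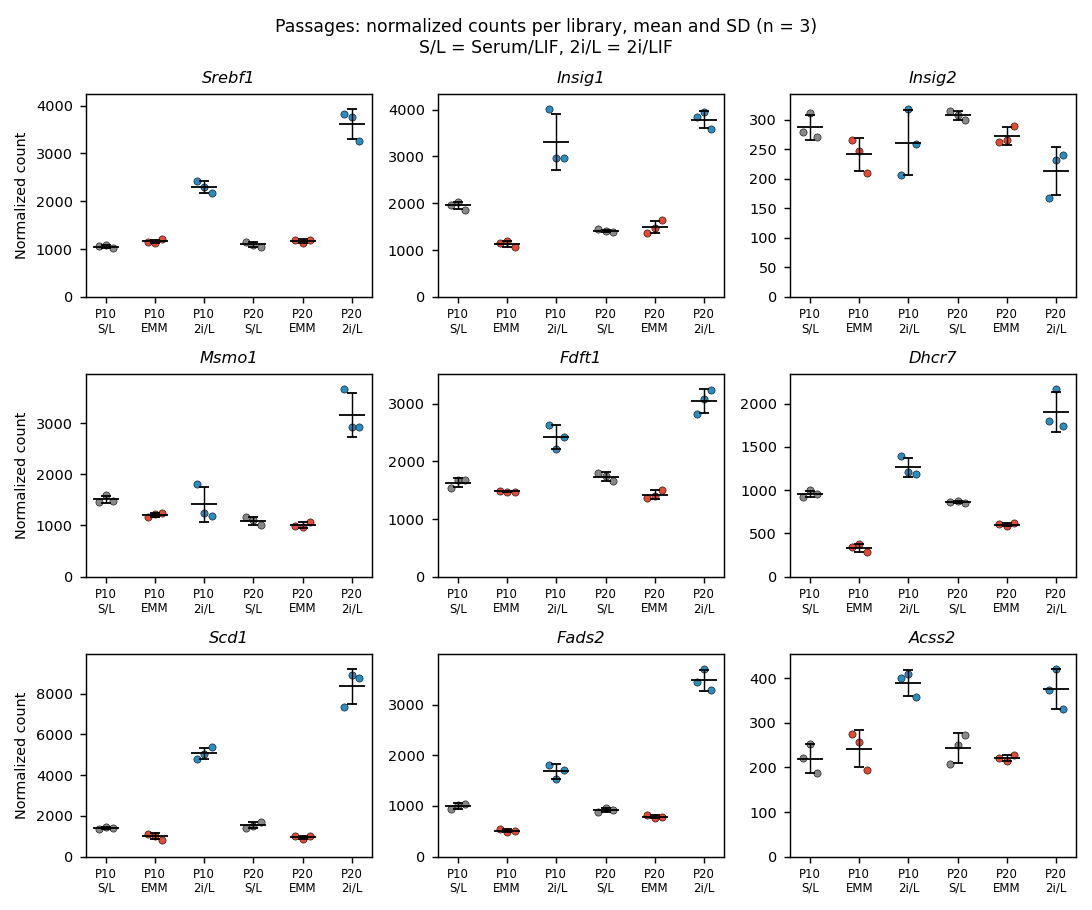
Normalized counts (y axis, from 0) of 9 genes in Serum/LIF (S/L), EMM and 2i/LIF (2i/L) at P10 and P20 (x axis). Points are the 3 libraries of a group, and bars are the mean and SD. Srebf1, Scd1 and Fads2 are highest in 2i/LIF at both passages, Msmo1 is high in 2i/LIF at P20 alone, and Dhcr7 is lowest in EMM.

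Of the 34 members Scd1 had the largest difference between 2i/LIF and Serum/LIF at both passages. It had 1331, 1441 and 1415 in Serum/LIF, 1126, 1015 and 827 in EMM and 4814, 5026 and 5364 in 2i/LIF at P10. At P20 it had 1406, 1513 and 1694 in Serum/LIF, 986, 861 and 1005 in EMM and 7371, 8917 and 8783 in 2i/LIF. The 3 media did not overlap at either passage, with EMM lowest and 2i/LIF highest. Its changes in 2i/LIF were 1.86 ± 0.11 (adjusted p = 5.2e-11) and 2.44 ± 0.11 (adjusted p = 2.7e-12), and those in EMM were -0.49 ± 0.11 (adjusted p = 0.00094) and -0.69 ± 0.10 (adjusted p = 4.5e-05). EMM differed from 2i/LIF by -3.14 ± 0.11 (adjusted p = 9.5e-14) at P20. Fads2 had 938, 1015 and 1043 in Serum/LIF, 537, 477 and 509 in EMM and 1809.8, 1528 and 1707 in 2i/LIF at P10. At P20 it had 876, 951 and 911 in Serum/LIF, 813, 766 and 782 in EMM and 3449, 3703 and 3282 in 2i/LIF. Its groups did not overlap at P10, and the changes were -0.97 ± 0.08 (adjusted p = 1.7e-08) in EMM and 0.75 ± 0.08 (adjusted p = 1.2e-07) in 2i/LIF. At P20 the 2i/LIF change was 1.93 ± 0.08 (adjusted p = 1e-12), and the EMM value of -0.21 ± 0.08 (adjusted p = 0.033) did not pass although the groups did not overlap.

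Fads1 rose from 794, 916 and 893 to 2154, 2462 and 2419 in 2i/LIF at P10 (1.44 ± 0.11, adjusted p = 5.4e-09) and by a like amount at P20 (1.38 ± 0.11, adjusted p = 1.1e-08). Elovl6 rose in 2i/LIF from 1716, 1882 and 1903 to 3667, 4644 and 4916 at P10 (1.27 ± 0.11, adjusted p = 2.5e-08) and from 2156, 2383 and 2623 to 3026, 3492 and 3809.5 at P20 (0.53 ± 0.11, adjusted p = 0.00058). In EMM at P10 it had 2689, 2421 and 2098 (0.39 ± 0.11, adjusted p = 0.0077), a call lost when any of 5 of the 6 libraries compared was left out (EMM replicate 3 was the exception), with values from 0.30 to 0.49, and under 3 of 7 other alternatives. Scd2 rose in 2i/LIF by 1.24 ± 0.07 and 1.62 ± 0.07. Elovl5 was lower in 2i/LIF at P10 (-0.40 ± 0.09, adjusted p = 0.00094) and lower in EMM at P20 (-0.44 ± 0.09, adjusted p = 0.00084).

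In fatty acid synthesis, Acss2 had 221, 252 and 187 in Serum/LIF, 275, 257 and 195 in EMM and 400.3, 411 and 358 in 2i/LIF at P10. The 2i/LIF libraries lay above the rest, and the change was 0.82 ± 0.14 (adjusted p = 5.8e-05) at P10 and 0.63 ± 0.14 (adjusted p = 0.00083) at P20. Acly rose in 2i/LIF by 0.39 ± 0.08 and 0.57 ± 0.08 and fell in EMM at P10 (-0.37 ± 0.08, adjusted p = 0.00079). Acaca was lower in both other media at P10, from 2087, 2129 and 2518 in Serum/LIF to 1504, 1538 and 1411 in EMM and 1323, 1378 and 1475 in 2i/LIF. Those changes were -0.59 ± 0.10 (adjusted p = 0.00012) and -0.69 ± 0.10 (adjusted p = 1.5e-05), and neither passed at P20. Fasn had 7875, 8663 and 9817 in Serum/LIF and 13132, 14793 and 13375 in 2i/LIF at P20 (0.65 ± 0.08, adjusted p = 1.7e-06), and the P10 value in 2i/LIF of -0.22 ± 0.08 (adjusted p = 0.023) did not pass.

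Between squalene and cholesterol, 4 of 11 genes were higher and 1 lower in 2i/LIF at P10, and 10 of 11 higher at P20, against 26.4% and 25.6% of all tested genes higher and lower at P10 and 21.0% higher at P20. The P10 counts lie near the shares over all genes. Dhcr7 had the largest fall of the 34 in EMM at P10, with 925, 997 and 953 in Serum/LIF, 347, 373 and 282 in EMM and 1394, 1216 and 1190.0 in 2i/LIF at P10. At P20 it had 864, 879 and 853 in Serum/LIF, 608, 580.2 and 617 in EMM and 1797, 2168 and 1739 in 2i/LIF. No groups overlapped at either passage, and the EMM changes were -1.51 ± 0.10 (adjusted p = 1.6e-09) and -0.53 ± 0.10 (adjusted p = 0.00031), while the 2i/LIF changes were 0.40 ± 0.10 (adjusted p = 0.0014) and 1.14 ± 0.10 (adjusted p = 1.4e-08). Ebp had 272, 251 and 313 in Serum/LIF, 162, 166 and 163 in EMM and 684, 618 and 549 in 2i/LIF at P20, a change of -0.76 ± 0.13 (adjusted p = 0.00022) in EMM and 1.15 ± 0.13 (adjusted p = 6.3e-07) in 2i/LIF. In 2i/LIF at P10 Ebp was higher by 1.24 ± 0.13.

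Tm7sf2 was higher in both other media at P10, from 92.6, 134 and 127 in Serum/LIF to 207, 209 and 211 in EMM and 333, 259 and 325 in 2i/LIF (0.83 ± 0.16, adjusted p = 0.00038 and 1.38 ± 0.16, adjusted p = 6.1e-07). Cyp51 was the member called higher in EMM at P20, from 939, 955 and 967 to 1188, 1251 and 1317 (0.39 ± 0.10, adjusted p = 0.0062), a call lost when any 1 of the 6 libraries was left out, with values from 0.36 to 0.43, and under 3 of 7 other alternatives. Hsd17b7, a reductase of sterol ketones, had 320.2, 298 and 274 in Serum/LIF, 155, 147 and 147 in EMM and 224, 193 and 171 in 2i/LIF at P10 (-0.99 ± 0.13, adjusted p = 7.7e-06 and -0.61 ± 0.13, adjusted p = 0.0005). At P20 it was higher in 2i/LIF, with 189, 256 and 250.3 in Serum/LIF and 282, 328 and 324 in 2i/LIF (0.43 ± 0.13, adjusted p = 0.0075), but without P20 2i/LIF replicate 2 or 3 or P20 Serum/LIF replicate 1 or 3 it did not pass, with values from 0.31 to 0.51 over the libraries left out. It was also lost under 6 of 7 other alternatives, with library totals alone at 0.31. Sc5d was lower in EMM at P10, from 321, 354 and 361 to 242, 223 and 202 (-0.62 ± 0.11, adjusted p = 0.00017). Fdft1 was higher in 2i/LIF by 0.57 ± 0.07 and 0.81 ± 0.07 at P10 and P20, and Sqle by 0.81 ± 0.07 at P20. Stard4 rose in 2i/LIF by 0.49 ± 0.09 at P10 and 1.06 ± 0.09 at P20.

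In the mevalonate pathway none of 7 genes was higher in 2i/LIF at P10 (0 with edgeR at an unadjusted p under 0.05 and 0 with DESeq2), 2 were lower at P10, and 6 were higher at P20, against 26.4% of all tested genes higher and 25.6% lower at P10 and 21.0% higher at P20. The 2 lower at P10 are near the share over all genes. Idi1, the isopentenyl diphosphate isomerase, had 2499.8, 2610.2 and 2488 in Serum/LIF, 1862, 1951 and 1732 in EMM and 1634, 1542 and 1483 in 2i/LIF at P10. It was lower in both other media (-0.45 ± 0.06, adjusted p = 1.3e-05 and -0.71 ± 0.06, adjusted p = 3e-08), and the higher level in EMM than in 2i/LIF (0.25 ± 0.06, adjusted p = 0.0028) did not pass without P10 2i/LIF replicate 2 or 3 or P10 EMM replicate 1 or 2, with values from 0.22 to 0.30, nor under 3 of 7 other alternatives. At P20 its 2i/LIF value of 0.02 ± 0.06 (adjusted p = 0.82) did not pass. Hmgcs1 was lower in 2i/LIF at P10 (-0.27 ± 0.07, adjusted p = 0.0037), a call lost without P10 2i/LIF replicate 2 or 3 or P10 Serum/LIF replicate 2 or 3 (-0.24, -0.23, -0.23 and -0.27), and higher at P20 (0.43 ± 0.07, adjusted p = 7.3e-05). Mvd, which makes isopentenyl diphosphate, had 508, 514 and 499 in Serum/LIF and 919, 1118 and 926 in 2i/LIF at P20 (0.96 ± 0.10, adjusted p = 3.3e-07). The groups did not overlap. Fdps, Pmvk, Mvk and Acat2 were higher in 2i/LIF at P20 by 1.06 ± 0.17, 1.09 ± 0.23, 0.89 ± 0.12 and 0.61 ± 0.08.

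The change over passages was tested within each medium. In 2i/LIF, 19 members rose from P10 to P20 and none fell, against 13.1% and 15.2% of all tested genes. When only those groups were fitted, 10 rose. At an unadjusted p under 0.05 edgeR gave 1 member lower at P20, and DESeq2 called 1. In Serum/LIF none rose (1 with edgeR at an unadjusted p under 0.05, 0 with DESeq2) and 6 fell, against 3.16% and 2.85%, a count that dropped to 3 without P10 replicate 2 or P20 replicate 2 or 3. When only those groups were fitted 1 rose and 10 fell, and with no filter on low counts 1 rose and 9 fell. In EMM 5 rose and 3 fell, against 13.3% and 11.9%, which is near the shares over all genes. DESeq2 called 5 higher and 6 lower. Between 2 and 7 were called in all when 1 library was left out. The count was 2 without P10 EMM replicate 2 or 3 and 3 without any 1 of the P20 EMM replicates. With library totals alone 6 rose and none fell, and with only those groups fitted 6 rose and 8 fell. The largest rises in 2i/LIF were in Pmvk (1.23 ± 0.24, adjusted p = 0.00042), Msmo1 (1.17 ± 0.13, adjusted p = 1.4e-06) and Fads2 (1.05 ± 0.08, adjusted p = 1.4e-08). Pmvk spread widely among libraries, with 516, 277 and 261 at P10 and 1135, 746 and 603 at P20. Replicate 1 of P10 2i/LIF was the highest of its group for Pmvk, Fdps, Msmo1 and Insig1. The 6 that fell in Serum/LIF included Hmgcs1 (-0.63) and Cyp51 (-0.59), and the 5 called higher in EMM included Dhcr7 (0.84) and Fads2 (0.63).

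Whether the difference between 2i/LIF and Serum/LIF itself changed with passage was tested as an interaction. The signed log2 fold change was higher at P20 than at P10 for 23 members and lower for 1, against 9.16% and 10.9% of all tested genes, with a median of 0.61 beside -0.05 over all. For 6 of the 23 it was higher by more than 1, against 3.18% of all tested genes. All 7 mevalonate genes were among the 23. A higher signed value is not always a wider gap: Idi1 went from -0.71 to 0.02, Acaca from -0.69 to 0.20, Elovl5 from -0.40 to 0.15 and Hsd17b7 from -0.61 to 0.43. Msmo1 had 1459, 1592 and 1485 in Serum/LIF and 1808, 1249 and 1181 in 2i/LIF at P10. At P20 it had 1165, 1106 and 1014 in Serum/LIF and 3663, 2917 and 2919.6 in 2i/LIF. Its groups overlapped at P10 and were far apart at P20, and the interaction was 1.63 ± 0.18 (adjusted p = 5e-06). Elovl6 was the member with a lower value at P20 (-0.74 ± 0.16, adjusted p = 0.002). For EMM against Serum/LIF the interaction passed for 5 members, each with a higher value at P20, against 8.28% of all tested genes, and for none with a lower one, against 6.43% (4 with edgeR at an unadjusted p under 0.05, 0 with DESeq2). They were Srebf2, Insig1, Hmgcs1, Dhcr7 and Fads2, with values from 0.42 to 0.98. The count fell to 3 without P10 Serum/LIF replicate 2, P20 EMM replicate 3 or P20 Serum/LIF replicate 1 or 3, and Hmgcs1 and Srebf2 were lost in 8 and 7 of the 12 fits that left out a library.

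**Figure D4:**
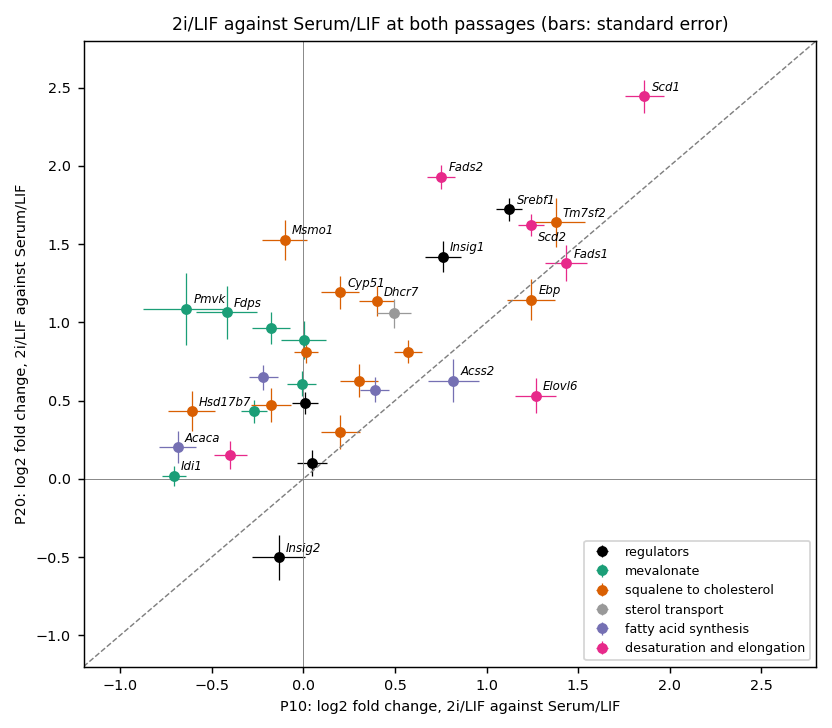
Log2 fold changes of the 34 genes in 2i/LIF against Serum/LIF at P10 (x axis) and P20 (y axis), coloured by role, with bars of 1 standard error and a dashed line of equality. Most points lie above the line: Msmo1 moves from -0.10 to 1.53 and Fads2 from 0.75 to 1.93, while Elovl6 lies below it at 1.27 and 0.53.

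At P20 the tested genes of chromosomes 6 and 8 had a median log2 fold change of 0.33 and 0.45 in 2i/LIF against Serum/LIF, beside -0.18 to 0.08 on other chromosomes. Of the 34 members, Mvd and Msmo1 lie on chromosome 8 and none on chromosome 6. Without those 2, 26 of the remaining members were called higher and 1 lower at P20, against 21.0% and 23.2% of all tested genes. For P20 against P10 in 2i/LIF, chromosomes 6 and 8 had medians of 0.18 and 0.32, beside -0.14 to 0.05 on other chromosomes. For EMM against 2i/LIF at P20 they had -0.34 and -0.29, beside -0.03 to 0.17. The part of the chromosome in the values of Mvd and Msmo1 was not tested.

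Other genes of the pathway were counted from 5 lists, beside 21.8% higher and 22.2% lower among all tested genes at 24 h of EMM and 26.4% and 25.6% in 2i/LIF at P10. Several of the counts that follow are near those shares, and nothing particular to a list is read from them. Of 8 genes that process or degrade SREBP factors, 4 were higher and 1 lower at 24 h of EMM, and 2 were higher and 2 lower in 2i/LIF at P10. Rnf145, a ligase that acts on SCAP, fell from 4709, 4710.5 and 4388 in Serum/LIF to 3231, 3056 and 3036 at 24 h (-0.57 ± 0.04, adjusted p = 3.7e-08) and from 1679, 1612 and 1691 to 763, 886 and 786 in 2i/LIF at P10 (-1.03 ± 0.07, adjusted p = 1e-09). Erlin1, a lipid raft protein that binds cholesterol, rose in 2i/LIF at P10 (0.82 ± 0.09, adjusted p = 6.4e-07).

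Of 9 tested genes that branch from the sterol and isoprenoid route, 1 was higher and 1 lower at 24 h of EMM, and 2 were higher and 1 lower in 2i/LIF at P10. Aacs, which activates acetoacetate for lipid synthesis, rose from 865, 927 and 828 to 1428, 1326 and 1302 at 24 h (0.63 ± 0.05, adjusted p = 1.2e-07), with no overlap. Lbr, a nuclear envelope sterol reductase, fell at 24 h (-0.27 ± 0.05, adjusted p = 0.00019). Pdss1, of ubiquinone side chain synthesis, rose in 2i/LIF at P10 (0.70 ± 0.10, adjusted p = 4.6e-06), and Nus1, of dolichol synthesis, fell (-0.35 ± 0.06, adjusted p = 4.9e-05).

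Of 11 genes of sterol export, uptake and storage, 3 were higher and 3 lower at 24 h of EMM, and 7 were higher and 2 lower in 2i/LIF at P10. Npc2, which carries cholesterol out of lysosomes, rose from 3630.5, 3539 and 2845 to 7939.9, 6944 and 6984 at 24 h (1.13 ± 0.09, adjusted p = 6.4e-08) and from 1549, 1523 and 1448 to 7024, 7119 and 6487 in 2i/LIF at P10 (2.19 ± 0.09, adjusted p = 4.1e-13). Abcg1, a sterol exporter, fell at 24 h of EMM (-0.65 ± 0.08, adjusted p = 7.7e-06), and Soat1, which esterifies cholesterol for storage, had 1261, 1503 and 1354 in Serum/LIF and 441, 572 and 579 in 2i/LIF at P10 (-1.36 ± 0.14, adjusted p = 1.6e-07).

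Of 17 tested genes of further elongation, desaturation and activation, 4 were higher and 4 lower at 24 h, and 7 were higher and 4 lower in 2i/LIF at P10. Elovl7, an elongase of long-chain fatty acids, rose from 191, 191 and 172 to 374, 342 and 324 at 24 h (0.91 ± 0.08, adjusted p = 2.2e-07) and from 75.2, 86.3 and 84.5 to 394, 456 and 422 in 2i/LIF at P10 (2.37 ± 0.17, adjusted p = 1.4e-09). Acacb, the acetyl-CoA carboxylase of the mitochondrial surface, fell from 879, 808 and 889 to 451, 457 and 487 at 24 h (-0.88 ± 0.07, adjusted p = 4.7e-08). Fads3 had 36.6, 35.7 and 35.9 normalized counts in Serum/LIF and 0, 4.36 and 0.815 in 2i/LIF at P10. The 2i/LIF libraries had at most 3 raw counts each, and no fold change is given.

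Of 8 genes that supply citrate and NADPH or act beside SREBP in lipogenesis, 2 were higher and 4 lower at 24 h, and 2 were higher and 1 lower in 2i/LIF at P10. Me1, the malic enzyme that yields NADPH, rose from 503, 532 and 523 to 789.7, 731 and 720.5 at 24 h (0.52 ± 0.06, adjusted p = 5.8e-06) and from 548, 600.2 and 561 to 2494, 2159.6 and 2352 in 2i/LIF at P10 (2.03 ± 0.08, adjusted p = 4e-13). Mlxipl, the gene of the glucose-sensing factor ChREBP, fell from 291, 287 and 286 to 122, 141 and 146 at 24 h (-1.08 ± 0.08, adjusted p = 4.3e-08). Mid1ip1, which promotes assembly of acetyl-CoA carboxylase, fell in 2i/LIF at P10 from 643, 639 and 664 to 215, 184 and 102 (-2.00 ± 0.20, adjusted p = 1e-07).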

How the data were processed

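RNA-seq tables of genes by library were analysed in mouse cells. Per the labels and the study's methods, the authors depleted ribosomal RNA and aligned reads to mm10 with STAR. For the time course they deposited raw counts per gene, with featureCounts named by the submitters' processing notes and HTSeq by the study's methods, a difference that was not settled. For the passage experiment they deposited estimated counts, with Salmon named in those notes, and 9.98% of those values were not whole and were rounded here. Tool versions and the annotation are not given in the sources used here. Gene names, exons and lengths came from GENCODE M21 and promoters from RefSeq.

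Counts were tested with edgeR 4.0.16 in R 4.3.3 (quasi-likelihood, TMM, all groups of an experiment in 1 fit with no covariate, filterByExpr at its defaults), over 16049 and 16054 genes. The 2 experiments were fitted and normalized separately. The fitting was tested on simulated data. Replicates were labelled as biological, and p-values measure the spread between these libraries. DESeq2 1.42.0, other size factors and filters, only the groups compared, a replicate block and leaving out each library were alternatives. Shared sequence was searched with blastn 2.17.0 and figures drawn with matplotlib 3.10.9.

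The members and lists were chosen with earlier results of these data known. Genes were named by rule: every regulator, the 3 members with the largest rise and the 3 with the largest fall in each comparison of media among those called whose groups did not overlap, and the largest rise and fall of each other list at 24 h and in 2i/LIF at P10. A gene of that rule is not reported here. Other members are given to account for the set and were picked after their values were seen.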

Additional observations from a re-analysis of the deposited data

Results flagged for a closer look

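For 6 members the 2i/LIF effect itself changed with passage: the log2 fold change against Serum/LIF was higher at P20 than at P10 by more than 1, with an adjusted p under 0.01 for the interaction (edgeR), against 3.18% of all tested genes by the same rule. For Pmvk, the phosphomevalonate kinase, the difference was 1.73 ± 0.33 (adjusted p = 0.00075), from -0.64 at P10 to 1.09 at P20. Its libraries spread widely within 2i/LIF, with replicate 1 highest at both passages. Msmo1 differed by 1.63 ± 0.18 (adjusted p = 5e-06) and Fdps by 1.48 ± 0.24 (adjusted p = 0.00017). Fdps had 3389, 1981 and 1991 normalized counts in 2i/LIF at P10 and 5731, 4121 and 4209 at P20, again with replicate 1 highest, and it shares sequence with 4 pseudogenes. Fads2 differed by 1.18 ± 0.11 (adjusted p = 9.3e-07), Mvd by 1.14 ± 0.15 (adjusted p = 2.5e-05) and Hsd17b7 by 1.04 ± 0.18 (adjusted p = 0.00037). These calls passed in each of the 12 fits that left out a library. In the same comparison the tested genes of chromosome 8, where Msmo1 and Mvd lie, had a median of 0.39, beside -0.22 to 0.04 on chromosomes other than 6 and 8.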

How the results depend on the processing

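No call of a member or other named gene changed direction under any alternative run. Of 355 calls (259 of members), 294 also passed under every alternative run, and 265 of 4866 recomputed values no longer passed, 192 of them with a library left out. Requiring a 2-fold change as well left 0 members for each EMM time against Serum/LIF or the EMM time before it, for EMM against Serum/LIF at P20 and its difference between passages, and for P20 against P10 in Serum/LIF and EMM. It left 1 for EMM against Serum/LIF at P10, 7 for 2i/LIF against Serum/LIF and for EMM against 2i/LIF at P10, 14 for each at P20, 3 for P20 against P10 in 2i/LIF and 6 for the 2i/LIF difference between passages. At an adjusted p under 0.05 the counts became 17 for 24 h against 9 h, 11 for EMM against Serum/LIF at P20, 11 and 16 for P20 against P10 in Serum/LIF and EMM, and 10 for the EMM difference between passages. Fitting only the groups compared gave 11 for EMM against Serum/LIF at P20 and 11, 14 and 10 for P20 against P10 in Serum/LIF, EMM and 2i/LIF. With no filter, P20 against P10 in Serum/LIF gave 10 and the EMM difference between passages 8. Leaving out 1 library gave 11 to 14 members at 3 h, 19 to 22 at 9 h, 18 to 20 at 24 h, 12 to 15 for 9 h against 3 h and 7 to 11 for 24 h against 9 h. In the passage experiment it gave 13 to 15 for EMM and 18 to 22 for 2i/LIF against Serum/LIF at P10, 4 to 6 and 27 to 30 at P20, 15 to 17 and 30 to 32 for EMM against 2i/LIF, 3 to 6, 2 to 7 and 17 to 22 for P20 against P10 in Serum/LIF, EMM and 2i/LIF, and 3 to 5 and 19 to 24 for the differences between passages in EMM and 2i/LIF. EMM against Serum/LIF at P20 gave 4 without P20 EMM replicate 1 or 2. The causes were not tested, and those fits also had fewer libraries. Deviations from the group mean had a median correlation of 0.007 among time-course samples with the same replicate number, and 0.003 in the passages. With the numbers of the descriptions it was 0.023 in the time course. In that order, single pairs reached 0.21, 0.30 and 0.28, and pairs with other numbers reached 0.28, 0.20 and 0.22. With 3 libraries per group this cannot settle whether the samples were paired. With the replicate block 16, 21 and 20 members were called at 3, 9 and 24 h, 15 and 20 at P10 and 7 and 28 at P20 for EMM and 2i/LIF against Serum/LIF, and the block moved no count of members by over 1.5 times. The sterol element search with 1 mismatch was added after the data were seen. Genes with few counts, such as Fads3, and the shallowest library, P20 2i/LIF replicate 1 with 6944904 counts, limit the precision.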
